A study of Homo sapiens with 35 samples.

Results

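The ubiquitin-specific proteases (USPs) were followed in RPMI-8226 multiple myeloma cells over 10 days of recovery from proteasome inhibition. The family was taken as every protein-coding entry whose gene symbol is USP followed by a number (and by X in USP9X and USP27X), with at least 50 counts in total over all libraries. This gave 46 members of 51 such symbols, among 17999 protein-coding entries with a count. The other 5 symbols were USP26, USP44, USP18, USP50 and USP41, with totals of 31, 14, 13, 5 and 1 counts, so that USP18 and its near-identical copy USP41, which remove the ubiquitin-like protein ISG15, were not measurable here. USP29, with 52 counts, lay just inside the minimum, and USP26 just outside it. Symbols such as USPL1, USP9Y and the USP17-like genes do not have this form and were not members.

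USPs are cysteine proteases that cut ubiquitin from proteins or from ubiquitin chains, and they form the largest family of human deubiquitinases. Some return ubiquitin to the free pool at the proteasome, others reverse marks on histones, and others protect single proteins such as p53 partners or membrane receptors from degradation. Myeloma cells secrete immunoglobulin and depend strongly on proteasome function, which makes the turnover of ubiquitin a central matter for them.

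RPMI-8226 is an established plasma cell line. Cells received carfilzomib, an irreversible proteasome inhibitor, at 750 nM for 1 h, were washed and were returned to drug-free medium. RNA was sequenced from 5 subcultures on each of days 0, 1, 2, 4, 6, 8 and 10, which gave 35 libraries. The labels list carfilzomib for all days, whereas the study's methods place the collection of day 0 before the drug, and day 0 served as the untreated baseline. The subcultures were split from 1 expanded culture, so that p-values measure the spread between subcultures and not between separate experiments. Medium was renewed during recovery and cell density was adjusted on days 6 and 8. These libraries include no culture of a later day without drug, so that time in culture and recovery from the pulse cannot be told apart.

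Libraries held 6519392 to 10962890 estimated counts, of which 78.1% to 84.9% belonged to protein-coding entries. Levels are given as CPM, counts scaled to the total of protein-coding counts and to the TMM factors of edgeR, and 3 counts in a library corresponded to 0.322 to 0.558 CPM before that scaling. The 7 plasma cell markers had counts throughout and summed to 1330 to 2261 CPM. The 3 B cell markers summed to 5.94 to 16.2 CPM, the 3 T cell markers to at most 4.47 CPM, the 3 myeloid markers to at most 2.28 CPM and the 3 stromal markers, of which COL1A2 had no count, to at most 2.43 CPM. On day 1 the plasma cell markers summed to 1330 to 1470 CPM, below the 1784 to 1918 CPM of day 0, and whether this bears on the USP values was not tested. In bulk RNA, fewer cells of a kind and less RNA per cell cannot be told apart.

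Together the members held a mean of 0.267% of protein-coding counts on day 0 and 0.342% on day 1. The mean share was 0.284% on day 2 and lay between 0.258% and 0.272% from day 4 to day 10. The largest gains in CPM on day 1 were those of USP5, from 56.5 to 65.5 CPM on day 0 to 241 to 290 CPM, and USP14, from 124 to 148 CPM to 322 to 353 CPM. The share of the family without them was not computed. On day 1, 20 members rose at Q ≤ 0.05, where Q is the p-value of the edgeR quasi-likelihood test adjusted over all 17999 entries, beside 25.4% of all entries that rose. On the same day 10 members fell, beside 27.3% of all entries. The median log2 fold change of the members on day 1 was 0.22, against -0.06 over all entries. It was -0.004 over entries with a mean log2 CPM above 0. On day 2, 14 members rose and 15 fell, beside 23.2% and 24.4% of all entries. On day 4, 11 rose and 11 fell, beside 19% and 20.1%. On day 6, 8 rose and 11 fell, beside 17.5% and 17%. On day 8, 9 rose and 12 fell, beside 18.2% and 18.6%. On day 10, 12 rose and 6 fell, beside 16.1% and 15.8%.

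On day 1 the share of members that rose, 43.5%, was thus above that of all entries, and the share that fell, 21.7%, below it. On day 2 both shares, 30.4% and 32.6%, were above those of all entries. All entries include those with very few counts, whereas members needed 50, so these shares and those below are not matched for level. The median absolute log2 fold change on day 1 was 0.45 for the members and 0.55 for entries with mean log2 CPM above 0. On day 2 these medians were 0.32 and 0.45. On days 6 and 8 the shares that rose, 17.4% and 19.6%, lay near the background, and the shares that fell were 23.9% and 26.1%. Without TMM factors 19 members rose and 10 fell on day 2, 19 rose and 9 fell on day 4, and 17 rose and 4 fell on day 10. The share of rises among all calls then moved in the same direction, from 48.7% to 59.3% on day 2, from 48.6% to 61.6% on day 4 and from 50.4% to 60.4% on day 10. That scaling raised the median change of the members on day 1 from 0.22 to 0.33 on the log2 scale.

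Over the 7 days 39 of 46 members changed at Q ≤ 0.05, beside 64.7% of all entries. USP10, USP11, USP13, USP28 and USP33 were higher on each of the 6 days after the pulse, and USP22, USP36 and USP45 lower. A further 6 members, USP7, USP12, USP14, USP16, USP38 and USP48, passed the test in both directions on different days. The shares of all entries with calls on all 6 days or in both directions were not computed. Whether such patterns are more frequent among the members is therefore not known. With a fold change above 2 as a further condition, 7 members changed on day 1, beside 20.4% of all entries. USP5, USP14, USP39 and USP54 rose and USP45, USP2 and USP6 fell. On day 2 this condition left 4 members, beside 15.3%, of which USP13 rose and USP45, USP2 and USP6 fell. The direct comparison of day 2 with day 1 found 5 members higher, beside 20.2%, and 15 lower, beside 19.4%. Between day 2 and day 10, 13 members rose, beside 16.5%, and 8 fell, beside 18.8%.

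**Figure D1:**
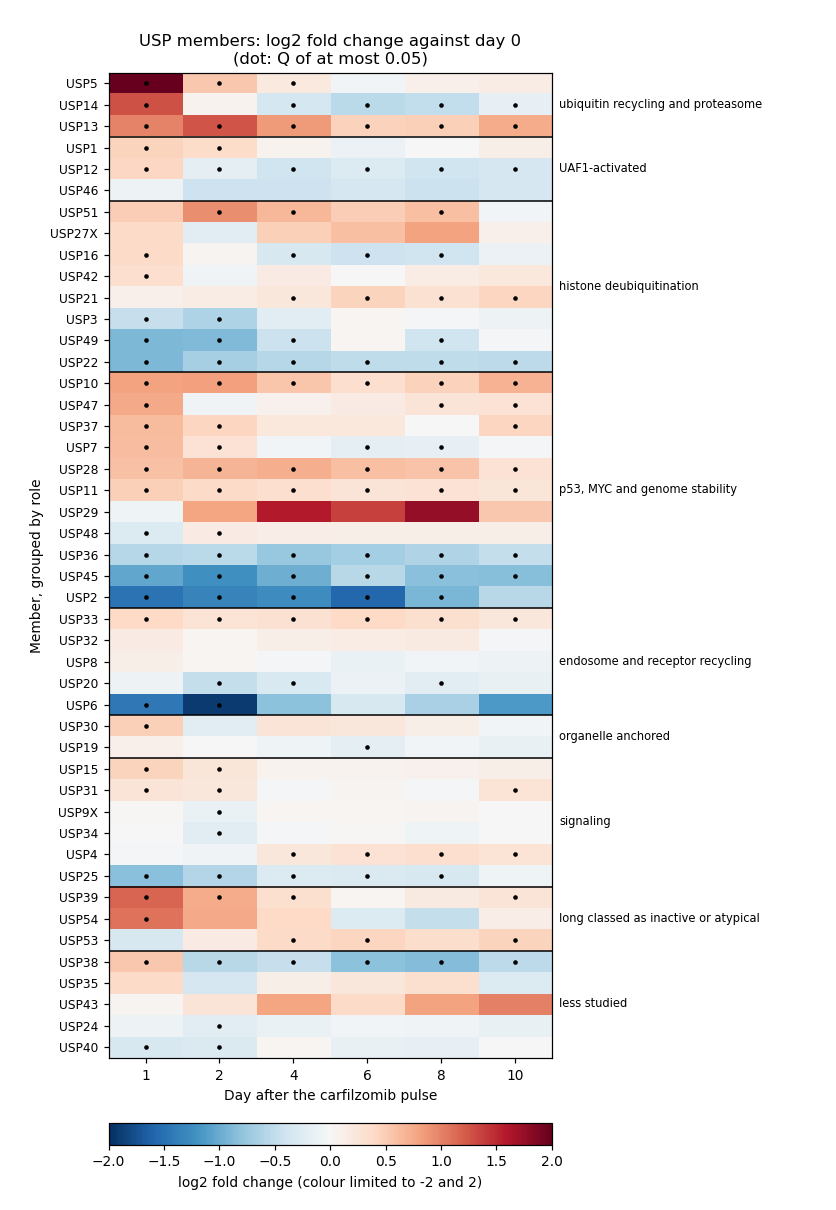
Log2 fold change of each of the 46 USP members (rows, grouped by role) on days 1 to 10 (columns) against day 0, with red for higher, blue for lower and a dot for Q ≤ 0.05. USP5 on day 1 (2.14) lies just past the end of the colour scale, and USP10, USP11, USP13, USP28 and USP33 carry a red dot on all 6 days whereas USP22, USP36 and USP45 carry a blue one.

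USP5 and USP14, which act on unanchored ubiquitin chains or at the proteasome, and USP13, a relative of USP5, rose on day 1. USP5, also known as isopeptidase T, takes apart free ubiquitin chains into single ubiquitin (chromosome 12, 6852148 to 6866632, plus strand, GRCh38). Its levels on day 0 were 58.4, 58.9, 56.5, 65.5 and 65.1 CPM in replicates 1 to 5. On day 1 they were 267, 267, 241, 290 and 272 CPM. Every library of day 1 lay far above every library of day 0. The rise on day 1 was 4.40-fold (log2 fold change 2.14 ± 0.06 SE, Q = 2.00e-28, n = 5 per day), the largest of any member.

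The rise of USP5 was short. On day 2 its libraries held 83.9 to 95.9 CPM, still above all libraries of day 0 (0.54 ± 0.06), and from day 1 to day 2 it fell by 1.59 on the log2 scale. On day 4 it held 61.8 to 77.0 CPM and 3 of 5 libraries lay above day 0. This small difference (0.19, and 0.31 without TMM factors) lost significance without day 0 replicate 3 (0.17), day 4 replicate 1 (0.16) or day 4 replicate 4 (0.16). On days 6, 8 and 10 the mean level was 58.7, 64.8 and 67.3 CPM and no change passed the test.

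USP14, which binds the regulatory particle of the proteasome and trims ubiquitin from its substrates (chromosome 18, 158383 to 214629, plus strand), rose and then undershot. It held 130, 148, 124, 136 and 144 CPM on day 0 and 322, 325, 326, 353 and 324 CPM on day 1 (2.42-fold, log2 fold change 1.28 ± 0.05, Q = 6.46e-23). On day 2 the groups overlapped, with 137 to 148 CPM. On day 6 all libraries lay below day 0, at 97.6, 91.0, 89.0, 94.1 and 95.8 CPM. Against day 0 the log2 fold change was -0.36 ± 0.06 on day 4, -0.54 ± 0.06 on day 6 and -0.49 ± 0.06 on day 8. On day 10 it was -0.16, with 109 to 130 CPM. That last difference lost significance without TMM factors (-0.09), with only the libraries of the 2 days (-0.14) and when day 0 replicate 2 (-0.11), day 0 replicate 4 (-0.14), day 0 replicate 5 (-0.12), day 10 replicate 1 (-0.11) or day 10 replicate 4 (-0.14) was left out.

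USP13, the closest relative of USP5 (chromosome 3, 179653032 to 179804366, plus strand), peaked on day 2 and stayed higher to day 10. It held 13.6, 13.2, 13.8, 15.0 and 14.1 CPM on day 0, 28.5, 27.9, 28.8, 27.1 and 26.0 CPM on day 1 and 30.6, 32.6, 32.2, 35.8 and 34.8 CPM on day 2. Each library of days 1 to 10 lay above all libraries of day 0. The largest log2 fold change was that of day 2, at 1.25 ± 0.09 (2.38-fold, Q = 3.62e-16), and day 2 exceeded day 1 (0.26 ± 0.08, Q = 0.00671). It was 0.46 ± 0.09 on day 6 and 0.75 ± 0.09 on day 10, when the libraries held 20.1 to 27.1 CPM. Of the members that rose on days 2, 4 and 10, USP13 had the largest log2 fold change on each of these days.

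**Figure D2:**
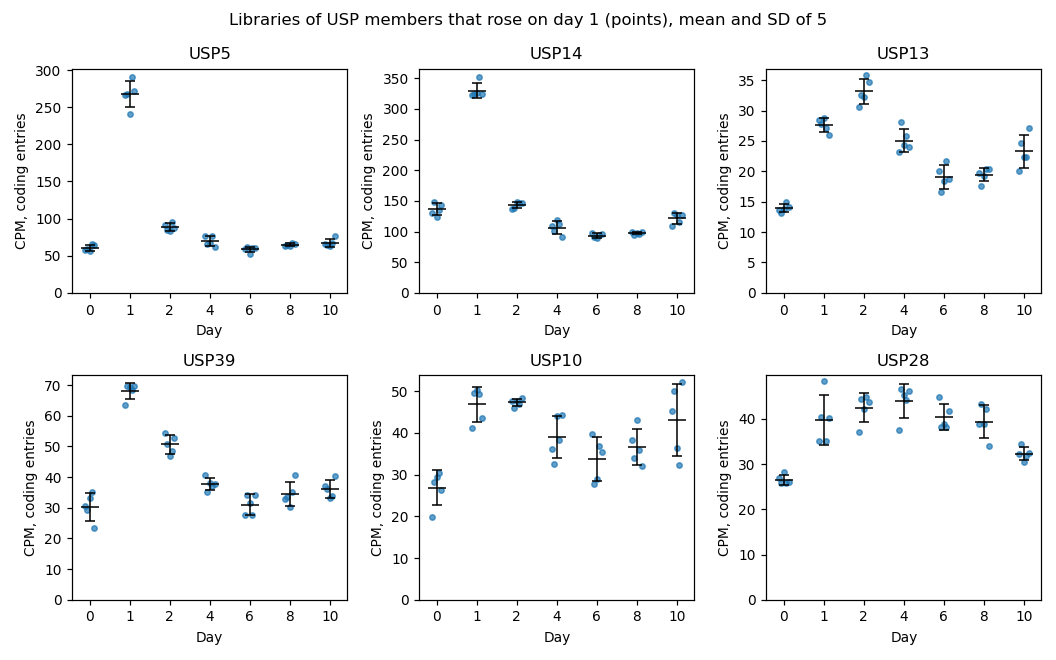
CPM of USP5, USP14, USP13, USP39, USP10 and USP28 (y axis, starting at 0) by day (x axis), with 1 point per library and the mean and SD of the 5 libraries. USP5 and USP14 peak on day 1 (means of 267 and 330 CPM), USP14 lies below day 0 on days 4 to 8, and USP13, USP10 and USP28 stay above day 0 on all days.

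The promoters of these members were searched because factors of the NRF family bind antioxidant response elements, heat shock factors bind paired heat shock elements, and CARE sites bind ATF4. The RefSeq promoter table (GRCh38.p14, 250 bases before to 50 after the start) matched 38 of 46 members. Each member was searched only at its first listed start, whereas the background counts every listed promoter. USP24, USP31, USP37, USP42, USP43, USP48, USP51 and USP9X had no match. The core of the antioxidant response element, TGACNNNGC, was present on either strand in 4 of the 38 promoters (10.5%), those of USP13, USP14, USP38 and USP2, against 13.3% of 35116 promoters. TGATGNAA, the core of the CARE site, was in none of the 38 against 3.62% of promoters, and GAANNTTC, a head-to-head heat shock pair, in none against 6.77%. TTCNNGAA, the tail-to-tail pair, was in 1 (2.63%), that of USP16, against 7.74%. Distances were counted from the RefSeq start, which for USP14, USP16 and USP2 lies downstream of the GENCODE gene start, so that the stretches printed for these members lie inside the GENCODE gene. All matches are printed 5′ to 3′ in the direction of the gene with the motif in capitals, whatever the change of the member:
USP13 (chr3:179652977-179653007, plus strand, motif 52 to 44 bases before the start): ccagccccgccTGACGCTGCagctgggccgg
USP14 (chr18:158520-158550, plus strand, motif reversed, 26 to 18 bases before the start): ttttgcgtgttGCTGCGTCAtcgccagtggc
USP38 (chr4:143184686-143184716, plus strand, motif 220 to 212 bases before the start): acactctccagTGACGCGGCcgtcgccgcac
USP2 (chr11:119364225-119364255, minus strand, motif 36 to 28 bases before the start): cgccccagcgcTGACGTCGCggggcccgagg
USP16 (chr21:29024629-29024658, plus strand, motif 28 to 21 bases before the start): ataatgccgcgTTCCGGAAgttattgcttt
USP13, USP14 and USP38 rose on day 1 and USP2 fell. Binding at these sites was not measured, and whether the motifs bear on the changes was not tested. The promoter searched for USP5, the member with the largest rise, held none of the searched motifs in this window.

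Of the members that work with the cofactor UAF1, USP1 and USP12 rose on day 1. USP1, which removes ubiquitin from PCNA and FANCD2 in DNA repair, held 150 ± 5.78 CPM on day 0 (mean ± SD, n = 5) and 204 CPM on day 1 (log2 fold change 0.45 ± 0.05). It was still higher on day 2 (0.37 ± 0.05) and did not differ at Q ≤ 0.05 after that. USP12 held 32.5 to 35.4 CPM on day 0, 38.4 to 47.0 CPM on day 1 and 22.4 to 30.0 CPM on day 10. All 5 libraries of day 1 lay above day 0 and all 5 libraries of day 10 below it. Its log2 fold change was 0.42 ± 0.08 on day 1, -0.39 ± 0.08 on day 4 and -0.34 ± 0.08 on day 10. On day 2 it was -0.19, which lost significance without TMM factors (-0.07), with the counts of all biotypes summed (-0.13), with only the libraries of the 2 days (-0.16) and without day 0 replicate 3 or 5 or day 2 replicate 1, 2, 4 or 5 (-0.20 to -0.16). USP46, the close relative of USP12, held a mean of 3.46 to 4.70 CPM and no change passed the test on any day. WDR48, which encodes UAF1, was at 0.03 on day 1 and rose on days 6 (0.29) and 8 (0.27). Of the 3 listed genes of the UAF1 complex, 1 was lower at Q ≤ 0.05 on each of days 1, 2, 4, 6 and 10. The median log2 fold change of these 3 genes was -0.29 on day 2, -0.13 on day 6 and -0.26 on day 10.

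Each member was placed in 1 role. Among the 8 members grouped under histone deubiquitination, 2 rose and 3 fell on day 1, beside the 25.4% and 27.3% of all entries. Of these rises, that of USP16 was lost with biotypes summed. USP48, which also acts on a histone, was counted with the members of p53, MYC and genome stability. USP22 is the catalytic subunit of the deubiquitinating module of the SAGA coactivator (chromosome 17, 20999596 to 21043760, minus strand). Among the members, its protein-coding entry had the highest level per transcript length on day 0. With biotypes summed, USP7 ranked above it. USP22 held 262, 255, 256, 262 and 259 CPM on day 0 and 146, 137, 133, 135 and 144 CPM on day 1. The fall was 1.86-fold (log2 fold change -0.90 ± 0.05, Q = 3.29e-20). It recovered partly, with a mean of 163 CPM on day 2, and stayed at 175 to 183 CPM on days 4 to 10. On day 10 all libraries, at 165 to 195 CPM, still lay below day 0 (-0.52 ± 0.05, Q = 2.94e-12).

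USP51 and USP27X are relatives of USP22 that can share its adaptors. USP51 held 1.73 to 2.86 CPM on day 0 and 3.11 to 5.30 CPM on day 2, without overlap (0.92 ± 0.23, Q = 9.84e-04), and 1.70 to 2.64 CPM on day 10. It also passed the test on day 4 (0.67) and narrowly on day 8 (0.60). Day 4 lost significance without day 0 replicate 2 (0.63), day 0 replicate 5 (0.61) or day 4 replicate 2 (0.60), and day 8 without day 0 replicate 1, 2, 4 or 5 or day 8 replicate 2 or 4 (0.51 to 0.64). A fit of the libraries of the compared days alone lost both, and DESeq2 lost day 8. USP27X, at means of 1.14 to 2.38 CPM, had no change that passed the test. Of the adaptors of the module, ATXN7 fell on day 1 (-1.22) and day 2 (-0.74), ATXN7L3 fell on days 1 to 6 (-0.17 to -0.39), and ENY2 rose on day 1 (0.47) and day 2 (0.43).

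USP49, which acts on histone H2B, held 37.9 to 48.1 CPM on day 0 and 20.3 to 24.7 CPM on day 1 (-0.89 ± 0.10), and by day 10 the libraries again spanned 36.4 to 43.6 CPM (-0.04 ± 0.10). USP3, a protease for H2A and H2B, fell on day 1 (-0.46 ± 0.10) and day 2 (-0.61 ± 0.10) alone. USP21, an H2A deubiquitinase, was higher on day 4 (0.23), day 6 (0.44), day 8 (0.31) and day 10 (0.44). Its call on day 4 was lost without day 0 replicate 1 (0.22), day 0 replicate 2 (0.25), day 4 replicate 1 (0.19) or day 4 replicate 4 (0.23). USP42, an H2B deubiquitinase, held 19.6 to 25.7 CPM on day 0 and 27.5 to 31.4 CPM on day 1 (0.34 ± 0.11, Q = 0.00638) and did not differ at Q ≤ 0.05 later.

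USP16, which removes ubiquitin from H2A in the cell cycle, depended on how transcripts were grouped. Its protein-coding entry held 62.4, 81.3, 81.5, 87.6 and 80.7 CPM on day 0 and 102, 99.2, 98.9, 104 and 106 CPM on day 1 (0.38 ± 0.07, Q = 2.08e-05). Its retained-intron entry held 26.2, 24.8, 27.5, 16.4 and 23.9 CPM on day 0 and 7.30, 4.13, 2.86, 7.26 and 5.33 CPM on day 1 (-2.14 ± 0.25). Summed over all biotypes, USP16 held 84.3, 98.3, 102, 95.0 and 97.4 CPM on day 0 and 98.7, 94.2, 92.8, 103 and 101 CPM on day 1, which overlapped (0.04 ± 0.06). Later the coding entry was lower on day 4 (-0.32), day 6 (-0.41) and day 8 (-0.40). The value of day 4 was -0.21 without TMM factors. The sum was also lower on those days (-0.54, -0.62 and -0.63), and on days 2 (-0.25) and 10 (-0.37).

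**Figure D3:**
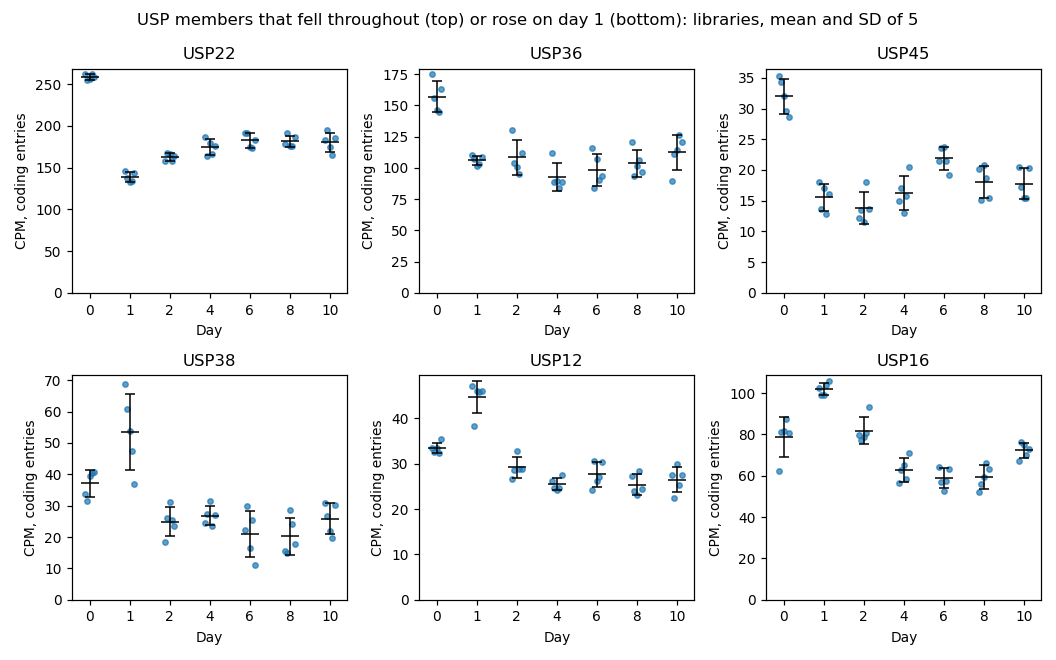
CPM of USP22, USP36 and USP45 (top) and of USP38, USP12 and USP16 (bottom) by day, with 1 point per library and the mean and SD of the 5 libraries; the y axes start at 0. The members in the top row lie below day 0 on all later days, and those in the bottom row have a mean above day 0 on day 1 and below it on days 4 to 8.

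Of the 11 members grouped under p53, MYC and genome stability, 6 rose and 4 fell on day 1, beside the 25.4% and 27.3% of all entries. This group covers MDM2, cyclins and repair proteins and includes USP48. USP10, a p53 deubiquitinase that also binds the stress granule protein G3BP1 (chromosome 16, 84699986 to 84779922, plus strand), held 19.8, 28.2, 29.5, 30.5 and 26.2 CPM on day 0. It held 41.2, 49.6, 50.3, 49.4 and 43.6 CPM on day 1, 47.5, 46.0, 47.5, 46.9 and 48.5 CPM on day 2 and 45.2, 49.999, 36.3, 32.2 and 52.1 CPM on day 10. Every one of these libraries lay above all libraries of day 0. The rise on the log2 scale was 0.81 ± 0.12 on day 1, 0.82 ± 0.12 on day 2 and 0.70 ± 0.12 on day 10. On day 6 it was 0.34, which lost significance without day 0 replicate 1 (0.24), day 6 replicate 1 (0.28) or day 6 replicate 4 (0.31). G3BP1 rose on days 1 (0.68) and 2 (0.26) and was lower on days 4 to 10 (-0.26 to -0.41).

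USP28, known to stabilize MYC (chromosome 11, 113797874 to 113875572, minus strand), held 26.9, 25.7, 28.2, 25.9 and 26.0 CPM on day 0 and 37.4, 46.5, 45.3, 44.2 and 46.1 CPM on day 4. All libraries of all later days lay above day 0. Its log2 fold change was 0.58 ± 0.08 on day 1, 0.73 ± 0.08 on day 4 (Q = 1.28e-09) and 0.28 ± 0.09 on day 10. USP11, which acts in homologous recombination with BRCA2, was higher on all 6 days by 0.24 to 0.47. Its calls of day 6 and day 10 were lost with biotypes summed (0.10 and 0.15), where those of the other days stayed at 0.16 to 0.35. USP37, which acts on cyclin A, rose on day 1 (0.64 ± 0.13), day 2 (0.44 ± 0.13) and day 10 (0.43 ± 0.13). USP47, which acts on DNA polymerase beta, had a mean of 52.3 ± 3.53 CPM on day 0, rose to 88.0 CPM on day 1 (0.76 ± 0.06), held 43.7 to 52.8 CPM on day 2 and was again higher on day 8 (0.25 ± 0.07) and day 10 (0.29 ± 0.07).

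USP7, which stabilizes both MDM2 and p53, held 164 to 186 CPM on day 0 and 251 to 283 CPM on day 1 (0.61 ± 0.06) and was still higher on day 2 (0.29 ± 0.06, and 0.46 with biotypes summed). Its coding entry was lower on day 6 (-0.19) and day 8 (-0.17). Day 6 lost significance without TMM factors (-0.14), day 0 replicate 5 (-0.16) or day 6 replicate 3 (-0.15). Day 8 lost it without TMM factors (-0.12), without day 0 replicate 1, 2, 4 or 5 and without day 8 replicate 1, 2, 4 or 5 (-0.16 to -0.12). With biotypes summed both turned positive and did not pass the test (0.05 and 0.07). GMPS, the enzyme that binds USP7, was higher on all 6 days (0.34 to 0.71).

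USP36, a nucleolar deubiquitinase that stabilizes MYC (chromosome 17, 78787381 to 78841441, minus strand), fell and did not recover. It held 175, 156, 146, 145 and 163 CPM on day 0, 110, 107, 101, 103 and 109 CPM on day 1 and 112, 88.4, 89.5, 84.3 and 88.7 CPM on day 4. No library of days 1 to 10 reached the lowest library of day 0. Its log2 fold change was -0.57 ± 0.09 on day 1, -0.76 ± 0.09 on day 4 (Q = 2.00e-09) and -0.48 ± 0.09 on day 10.

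USP45, which acts on the repair nuclease subunit ERCC1 (chromosome 6, 99432325 to 99521728, minus strand), held 35.3, 34.3, 32.0, 29.7 and 28.7 CPM on day 0. It held 18.1, 13.7, 17.1, 12.9 and 16.1 CPM on day 1, 12.2, 13.5, 11.6, 18.0 and 13.7 CPM on day 2 and 20.4, 17.2, 15.5, 15.4 and 20.4 CPM on day 10. No library of a later day reached day 0. The fall was 2.06-fold on day 1 (log2 fold change -1.04 ± 0.12), 2.33-fold on day 2 (-1.22 ± 0.12, Q = 1.84e-11) and 1.81-fold on day 10 (-0.85 ± 0.12).

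USP2, which stabilizes cyclin D1 (chromosome 11, 119355215 to 119381711, minus strand), was scarce, with 694 counts over all libraries. It held 6.75, 4.92, 6.26, 7.01 and 4.24 CPM on day 0, 1.32, 2.20, 2.88, 2.92 and 1.18 CPM on day 1 and 4.05, 3.27, 4.04, 3.82 and 4.81 CPM on day 10. The groups did not overlap on days 1 to 8, and 4 of 5 libraries of day 10 lay below day 0. It changed on the log2 scale by -1.47 ± 0.28 on day 1 (Q = 1.67e-05), -1.58 ± 0.28 on day 6 and by -0.55 ± 0.26 on day 10, which did not pass the test (Q = 0.108). USP48, which acts on histone H2A at sites marked by BRCA1, fell on day 1 (-0.28 ± 0.06, and -0.17 without TMM factors), and its rise on day 2 (0.16, and 0.28 without TMM factors) was lost with RLE factors (0.13), with filterByExpr (0.12) and without day 0 replicate 1, 2, 4 or 5 or day 2 replicate 2 or 3 (0.12 to 0.15).

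Of the 5 members of receptor recycling and endosomes, only USP33 rose and, on days 1 and 2, only USP6 and USP20 fell. USP33, a protease for beta-adrenergic and other receptors, was higher on all 6 days by 0.22 to 0.40, with a mean of 31.7 CPM on day 0 and 37.0 to 41.8 CPM later. USP20, its closest relative, fell on day 2 (-0.47 ± 0.08), day 4 (-0.31 ± 0.08, and -0.20 without TMM factors) and day 8 (-0.23 ± 0.08). Its call on day 8 was lost without TMM factors (-0.18) and without day 0 replicate 1 (-0.19), day 0 replicate 2 (-0.20) or day 8 replicate 2, 4 or 5 (-0.19). USP8, which acts with STAM on endosomes, held means of 87.2 to 104 CPM and had no call on any day, although it changed over the 7 days (Q = 0.00366). STAM rose on day 1 (0.80) and did not differ at Q ≤ 0.05 later.

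USP6, a hominoid gene derived in part from USP32 (chromosome 17, 5116032 to 5175034, plus strand), had 300 counts in all, and its reads can be shared with USP32. It held 1.41, 2.86, 2.50, 2.61 and 2.31 CPM on day 0, 0.588, 0.787, 0.339, 2.57 and 0 CPM on day 1 and 0.574, 0.214, 0.338, 0.771 and 1.26 CPM on day 2. Several of these values lie at or near the level of 3 counts, and on day 1 replicate 4 overlapped with day 0. Its fitted change was -1.43 ± 0.59 on the log2 scale on day 1 and -1.92 ± 0.60 on day 2 (Q = 0.00727), and -0.72 and -0.79 with biotypes summed. The call of day 1 was lost without TMM factors (-1.32) and without day 0 replicate 2, 3, 4 or 5 or day 1 replicate 1, 2, 3 or 5 (-1.45 to -1.14). Without day 1 replicate 4 it was -2.36. USP6 did not pass the test over the 7 days (Q = 0.0641). USP32, a Golgi and endosome protein, held means of 32.0 to 37.3 CPM and had no call on any day.

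USP30, anchored in the outer mitochondrial membrane where it counters parkin, rose on day 1 (10.4 ± 2.01 to 14.6 CPM, 0.48 ± 0.15) and did not differ at Q ≤ 0.05 later. USP19, anchored in the ER, was lower on day 6 (-0.19), which was lost without TMM factors (-0.13), day 0 replicate 3 (-0.17) or day 6 replicate 1 (-0.17).

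Among the 6 members of signaling pathways, USP15 and USP31 rose and USP25 fell on day 1. USP15, which acts on SMAD proteins in TGF-beta signaling, went from 80.4 ± 3.44 CPM (mean ± SD) to 110 CPM (0.45 ± 0.06), and USP31 from 31.6 ± 2.67 to 37.9 CPM (0.26 ± 0.08). Both were higher on day 2 as well (0.24 and 0.23, and 0.36 and 0.35 without TMM factors), and USP31 on day 10 (0.27). The call of USP31 on day 2 was lost without day 0 replicate 2 (0.19) or day 2 replicate 2 (0.19). USP4, the relative of USP15 and USP11, was at -0.04 on day 1 and was higher on days 4 to 10 (0.22, 0.29, 0.34 and 0.27). The value of day 4 was 0.34 without TMM factors. With biotypes summed it was 0.15 and did not pass the test, and that of day 10 was 0.18. USP9X, which protects the survival protein MCL1 (-0.14), and USP34, which acts on axin in Wnt signaling (-0.22), fell on day 2 alone. Without TMM factors these became -0.01 and -0.10 and neither passed the test, and the call of USP9X was also lost without day 2 replicate 4 (-0.10), with only the compared days (-0.10) and with biotypes summed (-0.08).

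USP39, a spliceosome protein that lacks the catalytic residues (chromosome 2, 85602856 to 85649283, plus strand), had the third-largest rise of day 1. It held 30.7, 29.4, 33.1, 35.1 and 23.3 CPM on day 0, 63.5, 69.7, 69.4, 68.4 and 69.7 CPM on day 1 and 54.5, 50.8, 46.8, 48.6 and 52.9 CPM on day 2. The groups did not overlap on days 1, 2 and 4. The rise was 1.17 ± 0.08 on the log2 scale on day 1 (2.25-fold, Q = 5.66e-16), 0.74 ± 0.08 on day 2 and 0.32 ± 0.09 on day 4. The sum over biotypes gave 0.96, 0.57 and 0.18. Its call on day 10 (0.25) was lost with biotypes summed (0.09) and without day 0 replicate 5 (0.19) or day 10 replicate 5 (0.22).

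USP54, long classed as inactive, held 8.30, 8.89, 5.72, 0 and 9.63 CPM on day 0 and 15.7, 13.9, 11.5, 16.3 and 13.4 CPM on day 1 (1.09 ± 0.36). Day 0 replicate 4 was listed at 0, and without it the log2 fold change was 0.78. Summed over biotypes it was 0.65 ± 0.09. USP53, its relative, known from tight junctions, held 37.3, 45.7, 35.7, 46.5 and 29.5 CPM on day 0 and 48.7, 45.0, 66.4, 48.1 and 58.5 CPM on day 10, with 4 of 5 libraries above day 0 (0.45 ± 0.14, Q = 0.0122). It was also higher on day 4 (0.38, and 0.22 with biotypes summed) and day 6 (0.43). Day 10 lost significance without day 10 replicate 3 (0.36), day 6 without day 0 replicate 5 (0.36), and day 4 without day 0 replicate 1 (0.38), day 0 replicate 3 (0.35), day 0 replicate 5 (0.32), day 4 replicate 3 (0.26) or day 4 replicate 5 (0.36).

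Of the less studied members, USP38 turned from a rise to a fall within 1 day. Its coding entry held 33.6, 31.6, 39.3, 40.3 and 40.8 CPM on day 0, 68.7, 60.9, 53.7, 47.5 and 37.0 CPM on day 1 and 18.5, 26.2, 31.1, 25.3 and 23.4 CPM on day 2. On day 1, 4 of 5 libraries lay above day 0, and on day 2 all lay below it. Against day 0 it changed by 0.54 ± 0.17 on the log2 scale on day 1, by -0.56 ± 0.18 on day 2 and by -0.87 ± 0.18 on day 8. On day 4 (-0.46) the call was lost without TMM factors (-0.35) and without day 0 replicate 3, 4 or 5 or day 4 replicate 1, 2, 4 or 5 (-0.45 to -0.40). On day 10 (-0.52) it was lost without TMM factors (-0.45) and without day 0 replicate 4 (-0.47), day 0 replicate 5 (-0.47), day 10 replicate 3 (-0.47) or day 10 replicate 4 (-0.43).

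For USP38 the libraries of day 1 differed in the division of counts between biotypes. Its entry of transcripts subject to nonsense-mediated decay held 10.2, 13.5, 24.1, 32.4 and 34.2 CPM on day 1, so that the library with the highest coding level had the lowest level of this entry. Summed over biotypes, USP38 held 34.9, 36.5, 35.3, 40.5 and 38.0 CPM on day 0, 71.9, 69.2, 73.4, 76.7 and 68.7 CPM on day 1 and 31.5, 32.6, 30.9, 32.5 and 32.0 CPM on day 2. All libraries of day 1 then lay above day 0 and all of day 2 below it. On this scale the log2 fold change was 0.96 ± 0.07 at day 1 and -0.21 ± 0.07 at day 2. At days 6, 8 and 10 it was -0.34, -0.36 and -0.23.

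USP40 fell on day 1 (-0.32 ± 0.11) and day 2 (-0.30 ± 0.11). Without TMM factors neither passed the test (-0.20 and -0.17), and day 2 was also lost without day 0 replicate 3 (-0.25) or day 2 replicate 1 (-0.23). USP24 was lower on day 2 alone (-0.22), which was lost without TMM factors (-0.09) or day 0 replicate 3 (-0.17). Members without a call on any day were USP8, USP27X, USP29, USP32, USP35, USP43 and USP46, of which USP8 and USP35 changed over the 7 days. USP29, from an imprinted locus on chromosome 19, held 0 to 0.797 CPM and lay near or under 3 counts in most libraries, so that no change was detectable at this depth. USP43 held means of 0.670 to 1.33 CPM, and the 7 scarcest members, which also include USP2, USP6, USP27X, USP46 and USP51, had 52 to 879 counts over the 35 libraries.

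Of 15 sets of related members with at least 2 measured, 3 held opposite calls on day 1, when 43.5% of all members rose and 21.7% fell. In the first, USP25 fell where USP28 rose. USP25, a protease of tankyrase and of TRAF proteins (chromosome 21, 15729982 to 15880064, plus strand), held 58.1, 56.5, 56.3, 58.3 and 57.9 CPM on day 0 and 29.0, 31.0, 36.4, 30.0 and 34.7 CPM on day 1 (-0.84 ± 0.09, Q = 2.41e-10). It returned to 48.9 to 59.3 CPM on day 10 (-0.09 ± 0.09), when USP28 was still higher. Its call on day 4 (-0.27) was lost without TMM factors (-0.16) or day 4 replicate 5 (-0.22), and that of day 6 (-0.29) without day 6 replicate 3 (-0.19). In the other sets with opposite calls USP45 fell where USP16 rose, and USP36 fell where USP42 rose. The rise of USP16 rests on its coding entry and was lost with biotypes summed. USP5 and USP13 rose together on day 1 and USP13 alone was higher on day 10. A difference in response between relatives was not itself tested. How often unrelated members held opposite calls was not computed, so whether relatives did so more often is not known.

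**Figure D4:**
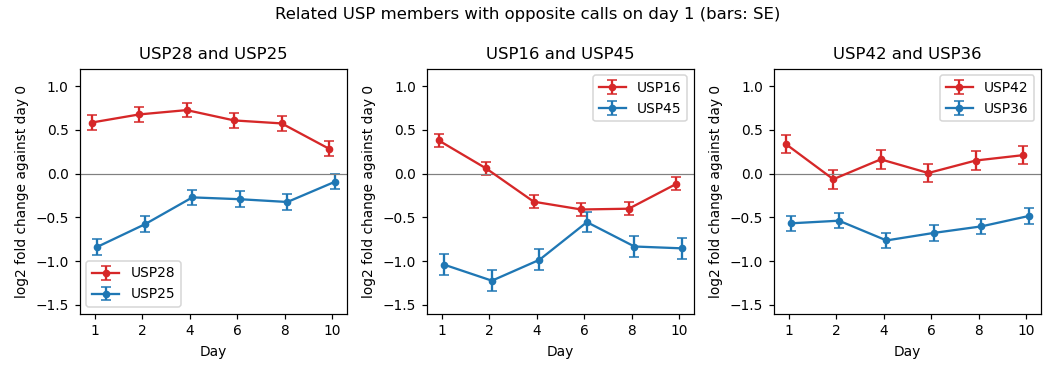
Log2 fold change against day 0 (y axis, with SE) by day (x axis) of 3 pairs of related members with opposite calls on day 1. On day 1 USP28, USP16 and USP42 lie at 0.58, 0.38 and 0.34, and USP25, USP45 and USP36 at -0.84, -1.04 and -0.57.

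Levels of the protein-coding entries were compared between members per transcript length. The order depends on the length used. Per coding length USP14, with 1482 coding bases, lay above USP5, with 2574, on day 1. On day 0 the order began with USP22 at 49.9 CPM per kb (SD 0.645, n = 5), USP1 at 41.6 (SD 1.60), USP48 at 34.7 (SD 1.52) and USP7 at 29.7 (SD 1.39). USP14, USP16 and USP36 followed at 27.4, 26.9 and 26.7 CPM per kb, within their spread of each other, and USP29 was last at 0.0271 CPM per kb. On day 1 USP5 led with 84.6 CPM per kb, ahead of USP14 with 66.4 and USP1 with 56.7, and USP22 stood eighth with 26.8. On day 2 USP1 led with 53.7 and USP48 followed with 38.6. On day 10 USP1, USP48 and USP22 held 45.0, 37.6 and 34.8 CPM per kb, the last of which had led on day 0. With the counts of all biotypes of a symbol summed, USP7 led on days 0, 2 and 10, at 44.6, 61.2 and 50.3 CPM per kb. On day 0 USP22 followed with 43.4 CPM per kb, within the spread of USP7 (SD 2.27), and on day 2 USP1 with 48.4. On day 1 USP5 led the sums as well, with 78.8 CPM per kb, and USP7 followed with 73.1.

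Beside the coding entries, 65 entries of other transcript biotypes belonged to 35 of the members' symbols. On day 1, 4 of them rose and 10 fell, beside 7.69% and 19.5% of all entries of other biotypes. Of 29 retained-intron entries none rose and 6 fell, those of USP4, USP45, USP16, USP53, USP24 and USP8. Shares over all entries of a single biotype were not computed, so whether this is particular to the members is not known. USP53 held 4.38, 5.46, 5.82, 3.91 and 5.01 CPM in its retained-intron entry on day 0 and 2.43, 0.825, 0.452, 0.309 and 1.63 CPM on day 1 (-2.08 ± 0.36). Of 16 entries of nonsense-mediated decay, those of USP7, USP10 and USP38 rose and those of USP36 and USP45 fell. USP7 held 83.7, 76.9, 98.9, 92.5 and 96.2 CPM in this entry on day 0, 162, 170, 175, 172 and 188 CPM on day 1 (0.95 ± 0.09) and 113, 131, 119, 147 and 133 CPM on day 10 (0.52 ± 0.09). On day 10, 3 entries rose and 5 fell, beside 5.08% and 6.64%. The 5 that fell were the retained-intron entries of USP4, USP53, USP16, USP8 and USP14. Reads of exons common to several transcripts were divided between entries by the authors' estimate, and differences between the entries of 1 gene were not tested.

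**Figure D5:**
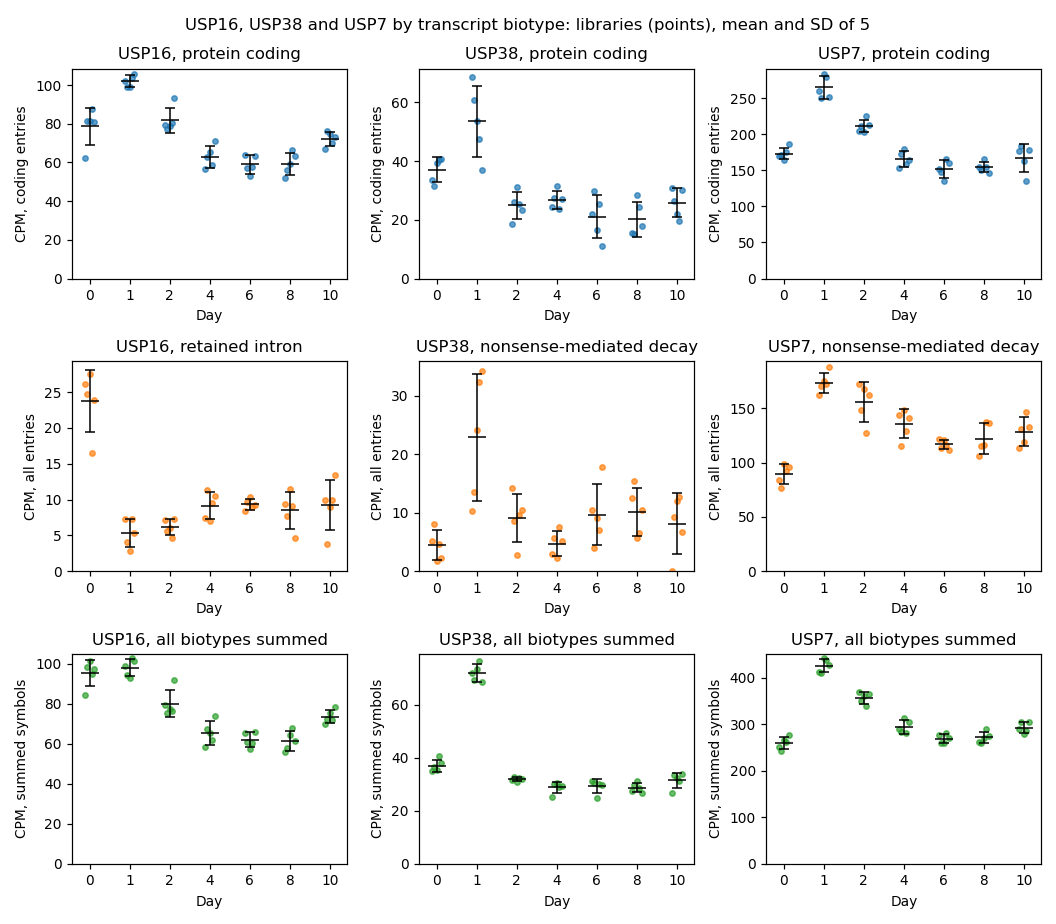
CPM of USP16, USP38 and USP7 by day in the protein-coding entry (top), in the retained-intron or nonsense-mediated decay entry (middle) and with all biotypes summed (bottom); points are libraries, with the mean and SD of 5. For USP38 on day 1 the libraries span 37.0 to 68.7 CPM in the coding entry and 68.7 to 76.7 CPM in the sum.

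Deubiquitinases of other families and USP-fold enzymes with other names gave 37 measured genes of 38 listed. On day 1, 13 rose and 12 fell, beside the 25.4% and 27.3% of all entries, and on day 10, 7 rose and 10 fell, beside 16.1% and 15.8%. The metalloprotease PSMD14, the deubiquitinase of the proteasome lid, rose by 2.14 on the log2 scale on day 1, from a mean of 99.3 to 438 CPM, beside 2.14 for USP5, and by 0.52 on day 2. COPS5, the catalytic subunit of the COP9 signalosome, rose by 1.13 on day 1. UCHL5, the third deubiquitinase that binds the proteasome beside PSMD14 and USP14, was at 0.04 on day 1, rose on day 2 (0.17) and was lower on days 4, 6 and 8 (-0.30, -0.40 and -0.39). The USP-fold enzymes CYLD, USPL1 and PAN2 fell on day 1 (-0.77, -0.76 and -2.36), and TNFAIP3, which edits ubiquitin in NF-kappaB signaling, fell by 1.78.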

How the data were processed

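RNA was sequenced from 35 libraries. The authors deposited estimated counts, which they obtained with Kallisto 0.44.0 on GENCODE release 28 (GRCh38.p12), correcting for GC bias, and collapsed with tximport, correcting for gene length. The deposited values are whole numbers per gene symbol and transcript biotype, not scaled for depth. Positions and lengths came from GENCODE release 44.

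The estimated counts went into edgeR 4.0.16 (R 4.3.3; TMM factors of 0.929 to 1.08), where glmQLFit and glmQLFTest used day as the only factor over 35 libraries, with Benjamini–Hochberg adjustment over 17999 entries. The SE is the absolute log2 fold change divided by the root of F. In simulated day 1 libraries over 16593 entries the test found 98 of 100 entries altered 4-fold and 70 of 100 altered 1.5-fold, and called 6 of 16393 unaltered entries. The altered entries were few and all lay above a minimum of expected counts. These rates therefore do not describe scarce members or data in which many entries change. Entries of other biotypes were fitted with all 37369 entries of at least 50 counts. Same-day libraries differed beyond sampling noise in all 70 pairs.

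Library values were given for USP5, USP13 and USP14, for the top 3 members in each direction on days 1, 2, 4 and 10 (Q ≤ 0.05, mean log2 CPM above 0), for the highest and lowest level per length and for relatives with opposite calls on day 1. Library values of USP54 and of other biotypes were added after they were seen. The members, lists and tests were chosen with earlier results of these data known. Alternatives were RLE factors, no factors, filterByExpr, a replicate block, only the libraries of the 2 compared days, DESeq2 1.42.0 and each library left out. Sums over biotypes were added after the data were seen. No sample was left out, and proteome and metabolome data were not analysed here.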

Additional observations from a re-analysis of the deposited data

Results flagged for a closer look

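Single libraries stood apart from the other 4 of their day in 8 of the 126 groups of 5 libraries examined for the 18 members chosen by the naming rule. Chance alone marks about 1 group in 20. USP14 was highest in day 1 replicate 4 (353 CPM against 322 to 326 CPM in the others). USP16 was lowest in day 0 replicate 1 (62.4 CPM against 80.7 to 87.6 CPM) and highest in day 2 replicate 5 (93.1 CPM against 77.1 to 80.5 CPM). USP2 was lowest in day 8 replicate 4 (2.26 CPM against 3.16 to 3.45 CPM), and USP25 in day 8 replicate 1 (40.2 CPM against 46.2 to 47.9 CPM). In day 4 replicate 1 USP28 was lowest (37.4 CPM against 44.2 to 46.5 CPM) and USP36 highest (112 CPM against 84.3 to 89.5 CPM). USP39 was lowest in day 1 replicate 1 (63.5 CPM against 68.4 to 69.7 CPM).

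Among these 18 members, the effects of day 1 and day 2 passed the test in opposite directions for USP38, with a log2 fold change of day 2 against day 1 of -1.10 (edgeR, Q = 1.04e-06). Outside them the same held for USP12, at -0.61 (Q = 1.50e-08), and for USP48, at 0.44 (Q = 4.55e-08), although their calls on day 2 were lost under several settings.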

How the results depend on the processing

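Of 139 calls of a member on a day, 25 were lost when 1 library was left out, 15 without normalization factors, 5 in a fit of the 2 compared days, and 1 each with RLE factors, filterByExpr and DESeq2. None of these changed direction. With biotypes summed, 9 were lost, among them those of USP7 on days 6 and 8, which turned from -0.19 to 0.05 and from -0.17 to 0.07. Without factors 19 members rose on day 4 in place of 11. All other counts of members stayed within 1.5 times of those reported, under these settings, with each library left out and with a minimum of 10 or 200 counts for a member. The test over the 7 days has no version with only the libraries of 2 days.

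Same-numbered libraries did not deviate together (correlations of -0.0686 to 0.0705 over 30 pairs, with 9 correlating best with their own number). This check cannot tell whether same-numbered libraries came from the same subculture. With the replicate block 1 call was lost, that of USP21 on day 4 (0.23), and 20 members rose and 10 fell on day 1.

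At this depth small changes of the 7 scarcest members, with 52 to 879 counts in all, can be missed, most of all in those with the fewest counts.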
